A study of Homo sapiens with 8 samples.

Results

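The nuclear-encoded subunits of the mitochondrial respiratory chain and ATP synthase were examined as a gene set in human lung fibroblasts with p53 released by Nutlin-3a. Members were all genes of the deposited table whose symbols begin with NDUFA, NDUFB, NDUFC, NDUFS or NDUFV and a digit, are SDHA, SDHB, SDHC or SDHD, or begin with UQCR, with COX and a digit from 4 to 8, or with ATP5. Hyphenated symbols, here 3 antisense transcripts, were left out. The rule used no measured value and gave 82 members of 18216 genes. Of these, 36 belong to complex I, 4 to complex II, 10 to complex III, 15 to complex IV and 17 to ATP synthase. NDUFA4, which was first assigned to complex I and is now counted with complex IV, and its relative NDUFA4L2 were placed in complex IV. The rule also took in genes that are not subunits: COX7A2L (SCAF1), which joins complexes III and IV into supercomplexes, the coupling factor ATP5S, and the copies UQCRHL, UQCRBP1 and ATP5L2.

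Complex I oxidizes NADH and complex II oxidizes succinate, complex III passes the electrons from ubiquinol to cytochrome c, and complex IV passes them to oxygen. Proton pumping by complexes I, III and IV drives ATP synthase. Complex II is wholly nuclear-encoded, whereas the other complexes join nuclear subunits, imported from the cytosol, to subunits made in the mitochondrion. In fibroblasts most subunits are housekeeping products, and a few have muscle, testis or hypoxia forms. Many of the promoters are known targets of NRF1, of the ETS factor GABP and of YY1.

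The cells were IMR90, an established line of diploid human lung fibroblasts, at passage 28. All 4 groups grew under 3% oxygen. They received DMSO, the solvent, or 3 µg/mL Nutlin-3a, which keeps MDM2 from binding p53, for 6, 9 or 12 h, with 2 libraries of polyA RNA per group. No label says whether the paired libraries of a group came from separate cultures, so a p-value here reflects library-to-library spread that may be only technical. One DMSO group, of unstated culture time, served all 3 times, so the comparisons with DMSO share their controls, and exposure time and culture time cannot be told apart. IMR90 is a line from 1 donor, and no cells lacking p53 were among the samples. In bulk RNA, fewer cells of a kind and less RNA per cell cannot be told apart.

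Gene reads ranged from 21.9 to 33.6 M per library, and the members took 0.565 to 0.600% of them. A normalized count, the authors' read count divided by a library size factor, of 2.46 to 3.75 corresponds to 3 reads, taken here as the floor (a limit for counting error, as duplicates from PCR carry no mark). All 12 fibroblast markers examined were expressed, COL1A1 and VIM among them. Of the markers of other cell types in the table, 4 of 5 epithelial, 3 of 6 endothelial, 1 of 5 leukocyte, 7 of 7 smooth muscle and pericyte and 0 of 5 striated muscle genes passed the filter on low values given below. The summed epithelial markers, mostly KRT18, had 2712 to 2748 in DMSO, 3282 to 3470 at 6 h, 2905 to 2926 at 9 h and 2483 to 2582 at 12 h. The summed endothelial markers, mostly TEK, had 1975 to 2076, 1874 to 1990, 1583 to 1681 and 1438 to 1507 in the same groups, and the leukocyte markers, mostly CD68, 748 to 905, 762 to 872, 933 to 993 and 913 to 964. Those of smooth muscle and pericytes, which fibroblasts share in part, had 22040 to 23680 in DMSO and 26170 to 27900 in the Nutlin-3a libraries. Of the defining markers, CDH1 reached at most 3.75, CDH5 6.55 and PTPRC 5.77. The part of these genes' changes in the results was not tested. The targets of p53 responded: CDKN1A, which encodes p21, had normalized counts of 4954 and 4670 in DMSO and 72462 and 70871 at 12 h, and MDM2 had 1882 and 2196 against 17639 and 17872. The DMSO libraries differed more from each other than did those of the Nutlin-3a groups. Over the 74 members with a DMSO mean of at least 200, the log2 difference between the 2 libraries had an SD of 0.157 in DMSO and of 0.0643, 0.064 and 0.0732 at 6, 9 and 12 h.

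Of the 82 members, 78 had a normalized count of at least 10 in at least 2 libraries and were tested in a fit of 14074 genes. The members below that limit were COX6B2, the testis form of a complex IV subunit, and the copies ATP5L2, UQCRBP1 and UQCRHL. UQCRHL had 12.9 at most, in 1 library at 9 h. COX4I2 and COX6A2, the lung or hypoxia form and the muscle form of complex IV subunits, were not analysed here. ATP5E, the epsilon subunit of the ATP synthase stalk, passed only through its 6 h libraries (12.5 and 17.3) and lay at 5.20 to 10.0 in the others, so its changes are not counted as evidence here. Its DMSO values of 8.80 and 9.67 contrast with 1108 and 1052 for ATP5D, another stalk subunit, and this gap was not examined further.

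Promoters of 65 members could be matched to the RefSeq promoter table (build GRCh38.p14), which gives 250 bases before and 50 after a gene's start. Exact letters of 3 motifs were searched on both strands, and a gene with several starts counted once if any window held the motif. The NRF1 motif GCGCATG was in 15 member promoters (23.1%) and in 5.3% of the promoters of 27305 genes, non-coding genes included. The ETS motif CCGGAAG was in 20 (30.8%, against 12.2%) and the YY1 motif AAGATGG in 18 (27.7%, against 7.11%). The ETS and YY1 letters can overlap by 3 bases, which happened in 0 member promoters. A match is a description of letters and not a site of binding. The promoters of 4 members whose transcripts are described below are shown, 5′ to 3′ on the gene's strand, with matched motifs in capitals. NDUFA1 (chrX:119871582-119871881, plus strand) was higher at all 3 times and holds the ETS motif in reverse complement. UQCRC2 (chr16:21953111-21953410, plus strand) rose under every setting tried at 12 h and holds the YY1 motif in reverse complement. NDUFA6 (chr22:42090723-42091022, minus strand), the member that fell, holds the NRF1 motif in reverse complement and the YY1 motif. NDUFV3 (chr21:42893059-42893358, plus strand), which also rose under every setting at 12 h, holds none of the 3 in this window.
NDUFA1: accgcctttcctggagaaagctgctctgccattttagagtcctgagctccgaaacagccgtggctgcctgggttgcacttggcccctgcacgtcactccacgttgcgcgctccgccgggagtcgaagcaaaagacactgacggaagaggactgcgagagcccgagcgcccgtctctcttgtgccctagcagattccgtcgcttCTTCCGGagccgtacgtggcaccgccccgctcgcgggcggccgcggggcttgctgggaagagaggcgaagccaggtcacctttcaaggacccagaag
UQCRC2: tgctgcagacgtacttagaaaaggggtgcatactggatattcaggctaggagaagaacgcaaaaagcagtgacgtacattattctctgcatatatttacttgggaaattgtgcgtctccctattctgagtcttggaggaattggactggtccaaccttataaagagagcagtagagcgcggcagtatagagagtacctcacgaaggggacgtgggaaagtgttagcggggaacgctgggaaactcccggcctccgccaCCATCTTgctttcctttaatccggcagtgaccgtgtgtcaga
NDUFA6: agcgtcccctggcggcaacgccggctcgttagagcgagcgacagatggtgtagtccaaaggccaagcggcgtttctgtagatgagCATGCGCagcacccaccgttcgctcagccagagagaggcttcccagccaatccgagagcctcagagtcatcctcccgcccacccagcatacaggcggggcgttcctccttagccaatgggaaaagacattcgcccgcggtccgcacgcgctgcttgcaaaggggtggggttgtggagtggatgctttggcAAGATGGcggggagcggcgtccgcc
NDUFV3: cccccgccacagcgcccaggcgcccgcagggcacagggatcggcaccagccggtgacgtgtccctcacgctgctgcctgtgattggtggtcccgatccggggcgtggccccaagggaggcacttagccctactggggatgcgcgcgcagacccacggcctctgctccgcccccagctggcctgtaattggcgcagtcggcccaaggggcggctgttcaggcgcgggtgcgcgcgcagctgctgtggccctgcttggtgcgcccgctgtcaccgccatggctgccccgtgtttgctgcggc

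Subunit transcripts changed little, and most of the calls against DMSO were increases. After 6 h, 5 of the 78 tested members had risen and 0 had fallen by the limma test, at an adjusted p under 0.05 over all genes. At an unadjusted p under 0.05, 1 was lower by limma, and edgeR and DESeq2 called 0 falls. Of all genes tested, 16.1% rose and 20.6% fell at that time. At 9 h, 7 members had risen and 1 had fallen, beside 16.2% and 19.1% of all genes. At 12 h, 16 members had risen and 1 had fallen, beside 18.5% and 21.4% of all genes. The share of members that rose at 12 h was thus near the background, while 1 fall in 78 lay below it. With quantile normalization, 26 members had risen and 0 had fallen at 12 h, and over all genes 3369 rose and 2482 fell instead of 2603 and 3007. That a gene set's share differs from the background was not tested.

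The sizes were small throughout. Among the 74 members with a DMSO mean of at least 200, log2 changes, computed on log2(normalized count + 1), ranged from −0.16 to 0.35 at 6 h, from −0.18 to 0.27 at 9 h and from −0.15 to 0.31 at 12 h, which is 0.902-fold to 1.24-fold at 12 h. Across the 78 tested members the SD of the log2 changes at 12 h was 0.128, against 0.524 across all genes. A change above 0.5 in either direction was seen in 1 member at 12 h, the near-floor ATP5E, and in 18% of all genes. The median standard error was 0.0613 for members and 0.0791 for all genes. Neither this comparison nor that of the SDs was matched for level. A mean of at least 200 was reached by 74 of the 78 members and 9568 of the 14074 genes. At that level the log2 difference of the DMSO pair had an SD of 0.157 for members and 0.147 for all genes. In the 6, 9 and 12 h pairs it was 0.0643, 0.064 and 0.0732 for members and 0.0972, 0.0862 and 0.0882 for all genes. The 3 comparisons with DMSO share their control libraries.

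**Figure D1:**
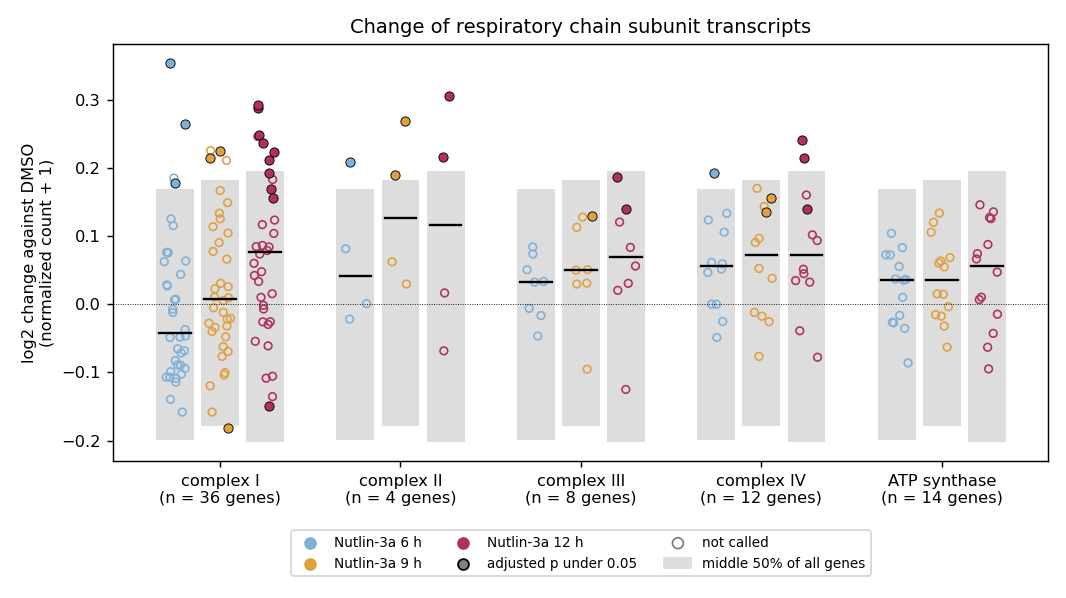
Log2 change of each respiratory chain transcript against DMSO (y axis) by complex and time of Nutlin-3a (x axis), for the 74 members with a DMSO mean of at least 200. Filled points passed the limma test, black lines are medians and grey boxes span the middle of the distribution of all genes tested, from the lower to the upper quartile. At 12 h the points lie between −0.15 and 0.31, with filled points above 0 except NDUFA6.

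The medians of the tested members are given by complex, and a difference in course between complexes was not tested. At 12 h the median log2 change was 0.08 for complex I, 0.12 for complex II, 0.07 for complex III, 0.10 for complex IV and 0.06 for ATP synthase, beside 0.01 for all genes tested. At 6 h the medians were −0.04, 0.04, 0.03, 0.06 and 0.04 in the same order, and at 9 h 0.0074, 0.13, 0.05, 0.08 and 0.03. That of complex II was thus highest at 9 h and that of ATP synthase lowest at 9 h, but the single libraries overlapped. The complex II median was 0.13 and 0.128 in the 9 h libraries and 0.0935 and 0.139 in those at 12 h. That of ATP synthase was −0.0116 and 0.086 in the 6 h libraries and −0.009 and 0.0496 in those at 9 h. Complex I had a lower median at 6 h than at 12 h, with −0.06 and 0.0111 in the 6 h libraries and 0.0762 and 0.0551 in those at 12 h. In fitted level 32 of its 36 members were higher at 12 h than at 6 h, but they share the same libraries. Of these, 4 passed the test, 11.1% of the complex, while 31.5% of all genes were called between these times. The median change from 6 to 12 h over all genes tested was −0.000424. With values adjusted for coding length, the median of complex III turned to −0.045, −0.00314 and −0.00823 at 6, 9 and 12 h. That of complex I at 9 h turned to −0.017, so the direction of these medians depends on the scaling.

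Complex I is the largest complex, with 36 of the 78 tested members, and by limma 27.8% of them were called at 12 h. The share was 50% of the 4 of complex II, 25% of complex III, 21.4% of complex IV and 0% of ATP synthase. These shares pool rises and falls, while over all genes tested 18.5% rose and a further 21.4% fell at 12 h. Of the 36 members of complex I, 3 rose at 6 h, 2 rose and 1 fell at 9 h, and 9 rose and 1 fell at 12 h. All of them were supernumerary subunits, the accessory proteins around the catalytic core. Of the 29 tested supernumerary subunits 9 rose at 12 h, and of the 7 core subunits, which carry FMN and the iron-sulfur clusters, 0 did by limma, edgeR or DESeq2, with 0, 1 and 0 higher at an unadjusted p under 0.05. With quantile normalization 1 core subunit rose. The core subunits had log2 changes between −0.11 and 0.09 at 12 h. A difference between the core and the supernumerary subunits was not tested.

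NDUFV3, an accessory subunit next to the NADH-oxidizing module, had the largest called increase in complex I at 12 h. Its normalized counts were 1012 and 982 in DMSO, 948 and 953 at 6 h, 1173 and 1156 at 9 h, and 1179 and 1263 at 12 h. The 9 h and 12 h libraries were all above the DMSO and 6 h libraries, and the groups did not overlap. The log2 change was −0.07 ± 0.06 (SE) at 6 h, 0.22 ± 0.06 at 9 h (limma adjusted p = 0.00645) and 0.29 ± 0.06 at 12 h (1.22-fold, limma adjusted p = 0.000615). Between 6 and 12 h NDUFV3 rose by 0.36 ± 0.06 (limma adjusted p = 0.000106), the largest called change of any member between these times. Under the 25 settings tried, the change at 12 h was at least 0.23 and passed the test in each, while the call at 9 h was lost without 9 h replicate 1 (0.21).

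NDUFB2, NDUFA7 and NDUFC1, which are also supernumerary subunits, followed at 12 h. NDUFC1 had 668 and 668 in DMSO, 713 and 683 at 6 h, 730 and 735 at 9 h, and 778 and 796 at 12 h, a log2 change of 0.24 ± 0.07 (limma adjusted p = 0.00713). Every Nutlin-3a library of NDUFC1 was above both DMSO libraries. NDUFB2 went from 628 ± 78.1 (SD, n = 2) in DMSO to 764 ± 38.7 at 12 h (0.29 ± 0.09, limma adjusted p = 0.0113), with a wide DMSO pair of 573 and 683. NDUFA7 went from 495 ± 50.9 to 587 ± 36.9 (0.25 ± 0.08, limma adjusted p = 0.0215). In GENCODE release 29, 75.9% of the exon bases of NDUFA7 are shared with a readthrough gene on the same strand. Likewise 38.9% of those of NDUFB2 lie opposite exons of BRAF. How the authors' counting treated such bases is not given in the sources used here. BRAF itself had a log2 change of −0.10 at 12 h. The call of NDUFC1 was lost without 12 h replicate 2 (0.22), and that of NDUFB2 without DMSO replicate 1 (0.16) or 12 h replicate 1 (0.24). That of NDUFA7 was lost without DMSO replicate 2 (0.14) or 12 h replicate 1 (0.18). Length adjustment also removed the calls of NDUFC1 and NDUFA7, and leaving out the intensity trend removed those of NDUFB2 and NDUFA7. DESeq2 and the authors' own DESeq2 results did not give the call of NDUFA7.

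The other complex I members that rose at 12 h were NDUFA1 (0.22 ± 0.07), NDUFB5 (0.21 ± 0.07), NDUFS4 (0.19 ± 0.07), NDUFA8 (0.17 ± 0.06) and NDUFS6 (0.16 ± 0.06). NDUFS4 and NDUFS6 are accessory subunits of the hydrophilic arm, and the former is a known cause of Leigh syndrome when mutated. NDUFS6 had 1408 and 1471 in DMSO, 1306 and 1414 at 6 h, 1387 and 1482 at 9 h, and 1588 and 1617 at 12 h. Only its 12 h libraries lay above all others, and the 6 h and 9 h libraries overlapped those of DMSO. Its call against DMSO held in 12 of 25 settings, whereas its rise between 6 and 12 h (0.24 ± 0.06, limma adjusted p = 0.00435) held in 22 of 24 and was lost without 6 h replicate 1 (0.18) or 12 h replicate 2 (0.23). Without DMSO replicate 1 the changes at 12 h of NDUFB5, NDUFS4 and NDUFS6 were each 0.12 and failed the test, and without DMSO replicate 2 that of NDUFA8 was 0.13 and failed too. Without 12 h replicate 2 the changes of NDUFB5, NDUFA8, NDUFS4 and NDUFS6 were 0.19, 0.15, 0.11 and 0.14, and without 12 h replicate 1 those of NDUFB5, NDUFA8 and NDUFS6 were 0.23, 0.18 and 0.17. None of these 7 values passed. The calls of NDUFA8, NDUFS4 and NDUFS6 at 12 h were also lost with DESeq2, in the authors' own DESeq2 results and with length adjustment.

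NDUFA1, an X-linked small membrane subunit whose promoter is shown above, rose at all 3 times. Its normalized counts were 841 and 951 in DMSO, 978 and 1046 at 6 h, 1043 and 1032 at 9 h, and 1065 and 1024 at 12 h. All 6 Nutlin-3a libraries were above both DMSO libraries, and they did not rise further after 6 h. The log2 changes were 0.18 ± 0.07, 0.21 ± 0.07 and 0.22 ± 0.07 (limma adjusted p = 0.0462, 0.0186 and 0.0126). Without DMSO replicate 1, the lower control, they were 0.09, 0.13 and 0.14 and passed at none of the times. The call at 12 h was also lost without 12 h replicate 1 (0.20), and that at 9 h without either 9 h library (0.21 and 0.22). The calls at 6, 9 and 12 h held in 10, 18 and 20 of 25 settings. That at 6 h was also lost without any 1 Nutlin-3a library and with DESeq2. The authors' own DESeq2 results gave neither the 6 h nor the 9 h call, and length adjustment removed all 3. RNF113A lies on the opposite strand over 44.5% of the exon bases of NDUFA1, and its own log2 change at 6 h was 0.19.

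NDUFA6, a complex I subunit of the LYR family, was the member that fell. It had 1798 and 1688 in DMSO, 1558 and 1674 at 6 h, 1513 and 1560 at 9 h, and 1545 and 1596 at 12 h. All 6 Nutlin-3a libraries were below both DMSO libraries. The log2 change was −0.11 ± 0.06 at 6 h, −0.18 ± 0.06 at 9 h (limma adjusted p = 0.0196) and −0.15 ± 0.06 at 12 h (limma adjusted p = 0.047). The call at 12 h held in 8 of 25 settings. It was not given by edgeR on recovered reads, and it was lost with any 1 library left out except DMSO replicate 2, with changes from −0.10 to −0.17. At 9 h the call was lost without DMSO replicate 1 (−0.14) and without 9 h replicate 1 or 2 (−0.16 and −0.20).

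NDUFB6 and NDUFC2 were called at 6 h only. NDUFB6, a membrane arm subunit, had 767 and 1112 in DMSO, 1152 and 1210 at 6 h, 1034 and 1128 at 9 h, and 1113 and 1078 at 12 h. DMSO replicate 1 stood apart from the 7 other libraries, which lay between 1034 and 1210. The log2 change at 6 h of 0.35 ± 0.11 (limma adjusted p = 0.0127) was 0.09 without that library and then failed the test. NDUFC2 had 271 and 273 in DMSO and 326 and 327 at 6 h (0.26 ± 0.09, limma adjusted p = 0.0331), and 264 to 304 at the later times. Its call was lost without DMSO replicate 1 or either 6 h library, at changes of 0.26 to 0.27. It shares 16.3% of its exon bases with the readthrough gene NDUFC2-KCTD14. DESeq2 and the authors' own DESeq2 results gave neither the NDUFB6 nor the NDUFC2 call at 6 h.

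NDUFA13, a supernumerary subunit also known as GRIM-19, had 2050 and 2134 at 6 h and 2333 and 2416 at 12 h (0.18 ± 0.05, limma adjusted p = 0.0139), a call lost without 6 h replicate 1 (0.15) or 12 h replicate 2 (0.16). NDUFS1, the largest core subunit, had log2 changes of −0.05, −0.03 and −0.03 against DMSO, and NDUFV1, which binds FMN and NADH, had −0.07, −0.02 and 0.05. None of these 6 values passed. The 95% interval of the change at 12 h was −0.13 to 0.07 for NDUFS1 and −0.08 to 0.18 for NDUFV1.

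**Figure D2:**
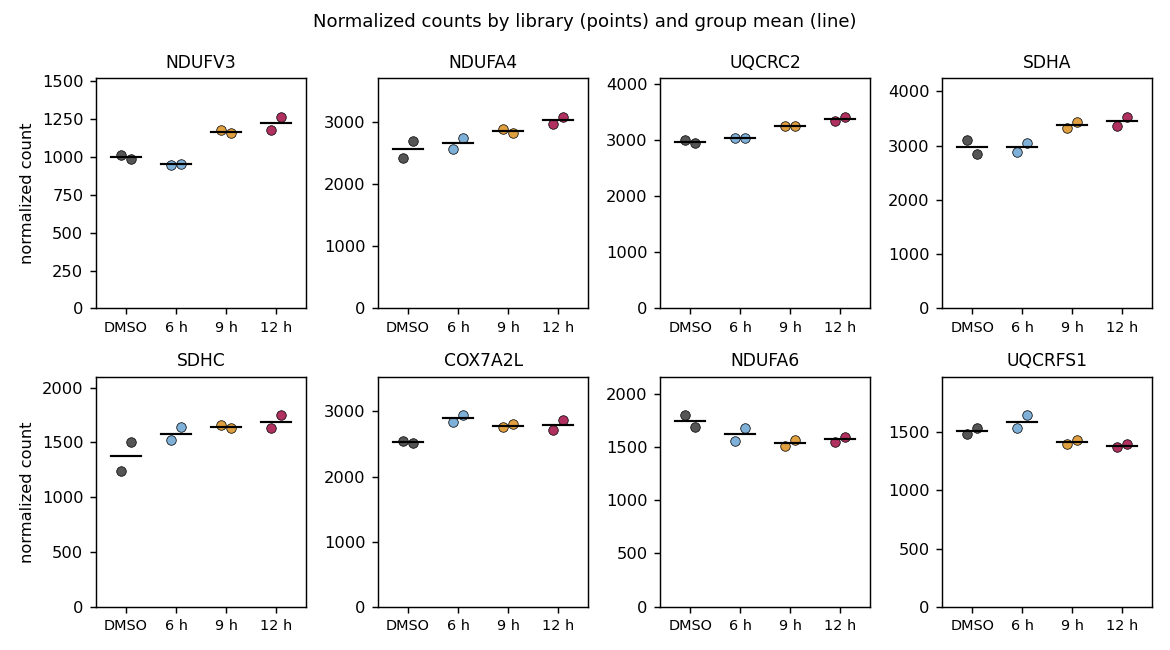
Normalized counts of 8 members (y axes, starting at 0) in the DMSO, 6 h, 9 h and 12 h groups (x axis), with each library as a point and the group mean as a line. NDUFV3, NDUFA4, UQCRC2 and SDHA are higher at 9 and 12 h than at 6 h, SDHC shows the low DMSO replicate 1 at 1238, and NDUFA6 and UQCRFS1 lie lower at 9 and 12 h.

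Complex II is the only complex of the chain with no mitochondrially encoded subunit, and 2 of its 4 members rose. SDHA, the flavoprotein that oxidizes succinate, had 3096 and 2836 in DMSO, 2887 and 3046 at 6 h, 3323 and 3436 at 9 h, and 3358 and 3530 at 12 h. The 6 h libraries lay within the DMSO range, and the 9 h and 12 h libraries were above it. The log2 change was 0.00 ± 0.05 at 6 h, 0.19 ± 0.05 at 9 h (limma adjusted p = 0.00961) and 0.22 ± 0.05 at 12 h (limma adjusted p = 0.00314). From 6 to 12 h it was also 0.22 ± 0.05 (limma adjusted p = 0.00429). The call against DMSO was lost at 9 h without 9 h replicate 2 (0.17) and at 12 h without 12 h replicate 2 (0.18), and the call from 6 to 9 h (0.19) without 6 h replicate 1 (0.15) or either 9 h library (0.16 and 0.21). The change from 6 to 12 h was 0.18 without 6 h replicate 1 or 12 h replicate 2 and did not pass. The table lists the near-identical pseudogenes SDHAP1, SDHAP2 and SDHAP3, with DMSO means of 175.9, 119.8 and 36.2, and reads that fit SDHA and a copy could be split between them, so the value of SDHA is uncertain to that extent.

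SDHC, a membrane anchor of complex II, rose at all 3 times. It had 1238 and 1504 in DMSO, 1520 and 1636 at 6 h, 1654 and 1633 at 9 h, and 1628 and 1748 at 12 h. No Nutlin-3a library overlapped the DMSO libraries, but DMSO replicate 2 lay just below the lowest of them. The log2 changes were 0.21 ± 0.07, 0.27 ± 0.07 and 0.31 ± 0.07 (limma adjusted p = 0.0314, 0.00717 and 0.00225). Without DMSO replicate 1 they were 0.07, 0.13 and 0.16, and only the change at 12 h passed. That call was lost without 12 h replicate 2 (0.25). The call at 9 h was also lost without 9 h replicate 1 (0.26), and that at 6 h without 6 h replicate 1 or 2 (0.26 and 0.15). DESeq2 and the authors' own DESeq2 results did not give the 6 h call of SDHC. SDHB, the iron-sulfur subunit, and SDHD, the other anchor, did not pass at any time. Their changes at 12 h were −0.07 (95% interval −0.19 to 0.05) and 0.02 (−0.14 to 0.17).

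In complex III the 2 core proteins rose and the Rieske protein did not. UQCRC2, core protein 2, had 3006 and 2946 in DMSO, 3042 and 3044 at 6 h, 3261 and 3250 at 9 h, and 3353 and 3421 at 12 h. Each later group lay above the former with no overlap. The log2 change was 0.13 ± 0.05 at 9 h (limma adjusted p = 0.0379) and 0.19 ± 0.05 at 12 h (1.14-fold, limma adjusted p = 0.00334), and 0.15 ± 0.05 from 6 to 12 h (limma adjusted p = 0.0162). At 12 h it passed in all 25 settings, with a range from 0.17. UQCRC1, core protein 1, had 4683 and 4641 in DMSO and 5303 and 4975 at 12 h (0.14 ± 0.05, limma adjusted p = 0.0296), a call that was lost with an adjustment for GC content and without 12 h replicate 1 (0.09) or either 9 h library. The call of UQCRC2 at 9 h was lost without most single libraries, at 0.12 to 0.13. That from 6 to 12 h was lost without either 6 h or either 12 h library, at 0.14 to 0.17. DESeq2 and the authors' own DESeq2 results did not give the 9 h call of UQCRC2.

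UQCRFS1, the Rieske iron-sulfur protein, fell between the exposure times. It had 1482 and 1537 in DMSO, 1534 and 1645 at 6 h, 1397 and 1429 at 9 h, and 1372 and 1396 at 12 h. The 9 h and 12 h libraries were below all others. Its change against DMSO at 12 h was −0.12 ± 0.06 and missed the test (limma adjusted p = 0.0902). Between 6 and 12 h UQCRFS1 fell by 0.20 on the log2 scale (SE 0.06, limma adjusted p = 0.0112). That call was lost without 6 h replicate 2 (−0.15) or either 12 h library (−0.19 and −0.21). From 6 to 9 h the change of UQCRFS1 was −0.17, and this call held in 12 of 24 settings, being lost with TMM scaling, quantile normalization and DESeq2 and without any 1 Nutlin-3a library (−0.12 to −0.22). UQCRH, the hinge protein, and the small subunits UQCRB, UQCRQ, UQCR10 and UQCR11 had changes between 0.02 and 0.12 at 12 h, and none of them passed.

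In complex IV, NDUFA4 and COX7A2 rose, as did the supercomplex factor COX7A2L. NDUFA4 had 2435 and 2705 in DMSO, 2575 and 2747 at 6 h, 2896 and 2822 at 9 h, and 2976 and 3092 at 12 h. The 6 h libraries overlapped DMSO, and the 9 h and 12 h libraries lay above. The log2 change was 0.16 ± 0.06 at 9 h (limma adjusted p = 0.038) and 0.24 ± 0.06 at 12 h (1.18-fold, limma adjusted p = 0.00184), and the latter passed in all 25 settings. The 9 h call was lost without DMSO replicate 1 (0.08) and without either 9 h or either 12 h library (0.14 to 0.17). DESeq2 and the authors' own DESeq2 results did not give the 9 h call of NDUFA4. NDUFA4L2, its hypoxia-inducible relative, was at 68.8 to 86.0 in DMSO and 83.2 to 89.2 at 12 h and did not pass. Per kilobase of coding length it made up 2.31 to 3.46% of the pair over the 8 libraries.

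COX7A2, the ubiquitous form of subunit 7A, went from 2346 ± 152 (SD, n = 2) in DMSO to 2718 ± 74.6 at 12 h (0.21 ± 0.06, limma adjusted p = 0.00479), a call lost without 12 h replicate 2 (0.19). COX7A1, the heart and muscle form, was at 70.4 and 85.9 in DMSO and at 91.7 and 97.8 at 12 h, which did not pass (0.28 ± 0.17, limma adjusted p = 0.195). Per kilobase of coding length COX7A1 made up 4.03 to 5.02% of the pair in every library, so the ubiquitous form predominated in all groups. COX7A2L had 2543 and 2521 in DMSO, 2844 and 2944 at 6 h, 2759 and 2805 at 9 h, and 2710 and 2873 at 12 h. All 6 Nutlin-3a libraries were above DMSO, and those at 6 h were on average the highest. The log2 change of COX7A2L was 0.19 ± 0.05 at 6 h, 0.14 ± 0.05 at 9 h and 0.14 ± 0.05 at 12 h (limma adjusted p = 0.00499, 0.042 and 0.0325). The 6 h call held in 24 of 25 settings and failed without 6 h replicate 2, where the change was 0.17. The 12 h call was lost without 12 h replicate 2 (0.10) or either 9 h library (0.14). The 9 h call was lost without any 1 of the Nutlin-3a libraries (0.12 to 0.15). DESeq2, the authors' own DESeq2 results and length adjustment gave neither the 9 h nor the 12 h call of COX7A2L.

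By limma the remaining subunits of complex IV did not pass at any time. COX4I1, the ubiquitous form of subunit 4, had 4859 and 4623 in DMSO and 4578 and 4648 at 12 h, a change of −0.04 with a 95% interval of −0.14 to 0.06. COX5A stood at −0.08, COX5B at 0.10, COX6A1 at 0.05, COX6B1 at 0.03 and COX8A at 0.09. COX7C, at 0.16 ± 0.07, came nearest to the threshold at 12 h among subunits of this complex that missed it (limma adjusted p = 0.0792). At 9 and 12 h COX7C was called higher by edgeR and with TMM scaling, quantile normalization or GC adjustment, but not by DESeq2. Quantile normalization also called COX6C at 6 h and COX5B at 12 h.

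ATP synthase gave no call against DMSO by limma. Of its 16 tested members, 0 passed at 6, 9 or 12 h, and 0, 2 and 3 had an unadjusted p under 0.05. DESeq2 also called 0 at each time, whereas edgeR called 0, 2 and 3, all higher, and so did limma with TMM scaling or quantile normalization. ATP5B, the catalytic beta subunit and the most abundant member, had 16281 and 17139 in DMSO, 16543 and 17756 at 6 h, 17400 and 17508 at 9 h, and 17210 and 16450 at 12 h. The groups overlapped, and the change at 12 h was 0.01 ± 0.05 (95% interval −0.09 to 0.11). ATP5A1, the alpha subunit, had 9963 and 11539 in DMSO and 11884 and 11670 at 12 h (0.14 ± 0.06, limma adjusted p = 0.0578). Over the 14 members with a DMSO mean of at least 200, log2 changes at 12 h lay between −0.09 and 0.15, and their 95% intervals spanned −0.27 to 0.30 in all. The inhibitor ATPIF1, which the symbol rule does not include, had a change of 0.13 ± 0.06 that did not pass (limma adjusted p = 0.0973).

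The rotor ring of ATP synthase is made of subunit c, whose mature protein is the same from ATP5G1, ATP5G2 and ATP5G3. Per kilobase of coding length ATP5G3 gave 48.7 and 52.1% of their sum in the DMSO libraries and 53.4 to 53.8% at 12 h. ATP5G2 gave 34.7 to 36.6% in DMSO and 32.8 to 33.6% at 12 h, and ATP5G1 gave 13.2 to 14.7% and 13.0 to 13.4%. The log2 change of ATP5G3 was 0.13 ± 0.05 at 12 h (limma adjusted p = 0.0564) and that of ATP5G2 was −0.06, and neither passed.

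Some members also differed between the exposure times. Against 6 h, 2 members rose and 1 fell at 9 h (18.4% of all genes were called), and 7 rose and 1 fell at 12 h (31.5% of all genes). Between 9 and 12 h, 0 members passed by limma, beside 4% of all genes, with 3 at an unadjusted p under 0.05 and 0 called by edgeR or DESeq2. The F test over the 4 groups called 14 of the 78 members, beside 49.9% of all genes. Over the 3 comparisons with DMSO, 19 members were called at least once and 59 never. In the same direction at all times, 3 were called (COX7A2L, NDUFA1 and SDHC), and 0 were called in opposite directions. The like counts over all genes are not given here, so these counts have no background beside them. At the single times of 6, 9 and 12 h, 16.1, 16.2 and 18.5% of all genes rose and 20.6, 19.1 and 21.4% fell.

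Levels in DMSO differed widely among members of a complex when given per kilobase of coding length. The normalized count per kilobase had a median of 2427 in complex I, 2252 in complex II, 5217 in complex III, 7102 in complex IV and 4857 in ATP synthase, over the members with a DMSO mean of at least 200. NDUFS5, at 11682, stood above the next complex I member, NDUFA13, at 5189, and NDUFC2 was lowest at 761. The 7 core subunits of complex I lay between 1364 and 2443. UQCRFS1 was the lowest of complex III (1836) and UQCRB the highest (10061). COX8A (12970) led complex IV and ATP5B (10529) led ATP synthase. The order depends on the length used. Per kilobase of the whole transcript SDHC, with its long reference transcript, changed from first to last of complex II, and UQCRB from first to seventh of complex III.

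**Figure D3:**
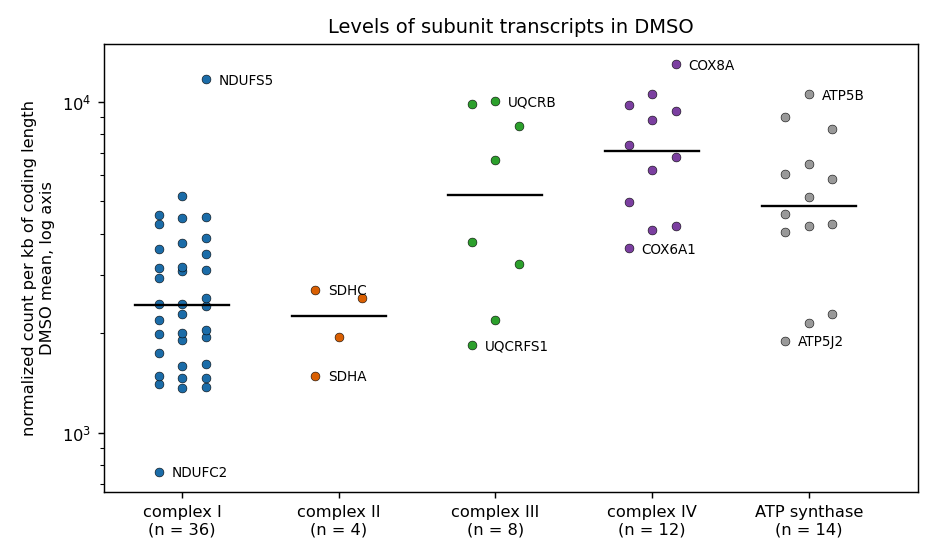
Mean normalized count in DMSO per kilobase of coding length (y axis, log scale) for the 74 members with a DMSO mean of at least 200, by complex (x axis), with the median as a line. Members of complexes III and IV and of ATP synthase reach 10061 to 12970, while most members of complex I and all of complex II lie below 5189.

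The spread of the DMSO pair bears on all comparisons with DMSO. DMSO replicate 1 minus replicate 2 differed by more than 0.2 on the log2 scale in 15 of 74 members, against 3 members in the 6 h pair, 1 at 9 h and 0 at 12 h. The difference correlated with the GC content of the reference transcript, with Pearson's r = 0.41 over the 74 members and 0.46 over 9532 genes of the same level. In the 6 h, 9 h and 12 h pairs r over the members was −0.05, −0.03 and 0.41. The points of each r share 2 libraries, and r is a description. For the changes against DMSO at 6, 9 and 12 h, r with GC content was −0.38, −0.22 and −0.26 over the members. Over the 9532 genes it was 0.03, 0.09 and 0.08. The 9 members lower in replicate 1 by more than 0.2 had a GC content of 41.0 to 61.1%, from NDUFB6 (−0.53), COX7C, SDHD and SDHC at the low end to NDUFV1 at the high end, and the 6 higher by more than 0.2 had 47.5 to 66.5%. Without DMSO replicate 2, 17 members rose and 9 fell at 6 h, 21 and 6 at 9 h, and 25 and 7 at 12 h. Without DMSO replicate 1 the counts were 1 and 2, 8 and 2, and 16 and 1. Without 12 h replicate 1 or 2, where the lone library is assumed to vary like the other groups, 9 or 7 members rose at 12 h. Of the 17 calls at 12 h, 3 (NDUFA4, NDUFV3 and UQCRC2) held in every one of the 25 settings. The part of GC content in the changes was not tested beyond an adjustment for it, chosen after seeing the data, which gave 20 members that rose and 2 that fell at 12 h.

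**Figure D4:**
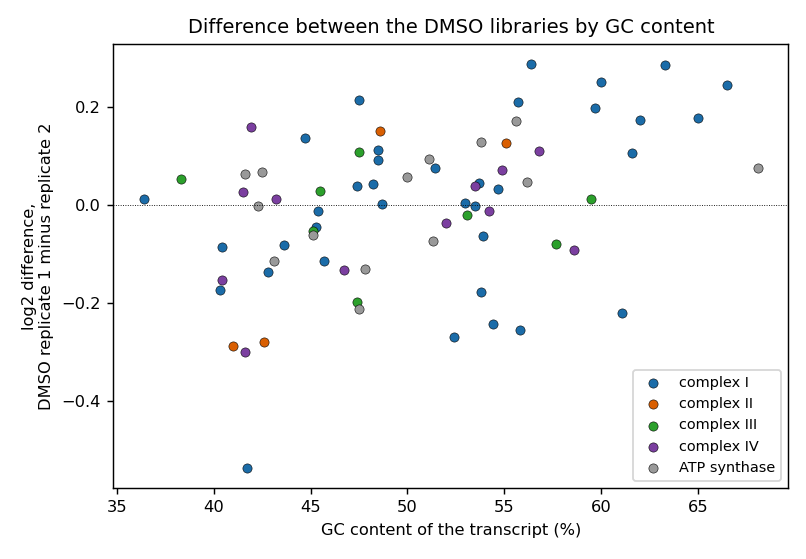
Log2 difference between DMSO replicate 1 and replicate 2 (y axis) against GC content of the reference transcript in percent (x axis), for the 74 members with a DMSO mean of at least 200, coloured by complex. Differences run from −0.53 (NDUFB6) to 0.29, and negative differences beyond 0.2 occur across GC contents of 41.0 to 61.1%.

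Lists of other mitochondrial genes were read at 12 h beside the 18.5% of all genes that rose and the 21.4% that fell. Among 20 listed regulators of mitochondrial biogenesis, 0 rose and 10 fell by limma, edgeR and DESeq2 alike in number, with a median log2 change of −0.16 by limma. At an unadjusted p under 0.05, 1, 2 and 0 were higher by these tools, and quantile normalization gave 2 that rose and 9 that fell. NRF1, the nuclear respiratory factor, had 543 and 493 in DMSO, 426 and 420 at 6 h, 356 and 338 at 9 h, and 294 and 310 at 12 h, falling by 0.78 on the log2 scale (limma adjusted p = 2.4e-07). TFAM, the mitochondrial transcription and packaging factor, had 1095 and 1355 in DMSO and 721 and 763 at 12 h, falling by 0.71. Both were lower at each later time, without overlap with DMSO. MYC fell by 0.84, the coactivator PPRC1 by 0.43, GABPB1, the partner of the ETS factor GABPA, by 0.35, and the coactivator PPARGC1B, at 45.4 ± 4.93 in DMSO, by 1.11. GABPA itself stood at −0.09, and PPARGC1A was near the floor, with group means of 6.92 at 12 h and 11.4 in DMSO.

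Among 24 protein import genes, 1 rose and 11 fell by limma (median −0.14), 2 and 11 by edgeR and 0 and 8 by DESeq2, and with quantile normalization 3 rose and 5 fell. TOMM40, the import pore of the outer membrane, fell by 0.69, TIMM21 by 0.51, the chaperonin HSPD1 by 0.43 and HSPA9 by 0.23, while TOMM7 rose by 0.36. Of 22 tested genes of pyruvate dehydrogenase and the TCA cycle, 0 rose and 5 fell by limma (median −0.01, 1 higher at an unadjusted p under 0.05) and by DESeq2, and edgeR added 1 that rose. The 5 falls are 22.7% of the list, near the background of 21.4%. The median was 0.01 with TMM scaling and 0.05 with quantile normalization. Those that fell were IDH2, by 0.59, citrate synthase (CS) by 0.29, FH by 0.22, DLST by 0.19 and IDH3A by 0.19. Members, listed genes and the choice of lists were all made with earlier results of these data known, and no list was tested against another.

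Of 56 tested assembly factors, 7 rose and 11 fell at 12 h by limma (median 0.06), 12 and 9 by edgeR, and 15 and 6 with quantile normalization. The limma counts are 12.5% and 19.6% of the assembly factors tested, below the background of 18.5% and 21.4%. For complex I, NDUFAF8 rose from 400 and 393 in DMSO to 661 and 795 at 12 h (log2 0.87), the largest change of any assembly factor, and TIMMDC1 rose by 0.27, while FOXRED1 fell by 0.59 and ACAD9 by 0.29. For complex III, UQCC1 rose by 0.34. For complex IV, CMC2 fell by 0.55, COA7 by 0.36, SCO1 by 0.27 and COA4 by 0.25. TMEM70, which helps to assemble ATP synthase, fell by 0.19, and none of the 4 factors of complex II was called by limma or DESeq2, while 1 was higher at an unadjusted p under 0.05 by limma and 1 rose by edgeR. SCO2, a copper chaperone of complex IV and known p53 target, was listed at 1.95 to 7.69, near the floor, and was not tested. FDXR, a ferredoxin reductase of mitochondrial iron-sulfur synthesis and known p53 target, rose by 3.29.

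Subunits that the symbol rule leaves out divided as well. CYC1, cytochrome c1 of complex III, had 2262 and 2224 in DMSO and 1898 and 1950 at 12 h and fell by 0.22 (SE 0.05, limma adjusted p = 0.00179). All 6 Nutlin-3a libraries of CYC1 were below both DMSO libraries, while UQCRC1 and UQCRC2 of the same complex were higher. USMG5 and C14orf2, small subunits of ATP synthase, rose by 0.19 and 0.18, and NDUFAB1, the mitochondrial acyl carrier protein, rose by 0.19. CYCS, cytochrome c, had a change of −0.08 that did not pass.

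**Figure D5:**
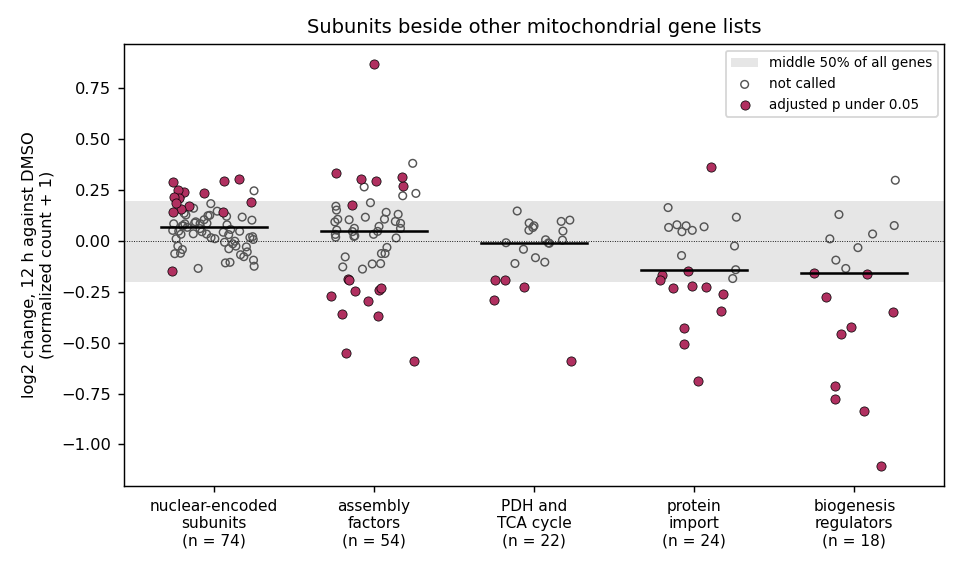
Log2 change at 12 h against DMSO (y axis) for the 74 subunit genes and for 4 lists of other mitochondrial genes (x axis), restricted to genes with a DMSO mean of at least 200 for the subunits and 20 for the lists. Filled points passed the limma test, lines are medians and the grey band spans the quartiles of all genes. The subunits lie between −0.15 and 0.31, whereas TOMM40, NRF1, TFAM and MYC lie below −0.6.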

How the data were processed

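RNA levels of the members were taken from the table the authors deposited, a signal made by dividing gene read counts by a size factor for each library, as the values themselves show. Per the submitters' processing notes, STAR and DESeq2 were used with genome build hg19. Not given in the sources used here: tool versions, how reads were counted and with which strand setting, and the annotation. The authors also deposited, per the file headers, DESeq2 tables with log2 fold changes (DMSO over Nutlin-3a, turned here), a Wald statistic, which is a score, and a raw and an adjusted p-value. These tables were used only as an alternative. All values were whole multiples of 1 read within a tolerance of 1e-06 (100% in each library), so reads could be recovered for count tests. In each library 28.2 to 29.1% of the table's total lay in 3 entries that name no gene and was left out. Per the labels, the library kit marks the strand.

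The main test was limma 3.58.1 (R 4.3.3) with an intensity trend on log2(normalized count + 1), fitted to the 8 libraries at once (degrees of freedom: 4 residual, 15.5 prior). Genes with at least 10 in at least 2 libraries entered, and p-values were adjusted over all of them (Benjamini-Hochberg, threshold 0.05). A gene past the threshold is called, and is said to rise or fall. A number followed by ± is a log2 change with its standard error, or a mean with its SD where marked. Low counts make these log2 changes smaller than the ratio of counts. Groups of 2 cannot reach the threshold in an exact permutation test, whose smallest two-sided p is 0.333. The count tests were edgeR 4.0.16 and DESeq2 1.42.0. The limma, edgeR and DESeq2 scripts were tested on simulated data.

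Lengths and GC content came from 1 GENCODE release 29 transcript per gene, found for all 82 members and for 95.6% of all genes. The design named RefSeq protein lengths for levels per length, and GENCODE coding lengths were used in their place. Length adjustment used the coding lengths too. Members, lists and the naming rule were chosen with earlier results of these data known. The rule named, per complex, up to 4 of the largest called increases and decreases at 12 h, members called at all 3 times or in opposite directions, up to 4 called changes each way from 6 to 12 h, set subunits and isoforms, members below the filter, and up to 4 genes with the smallest p per list. Genes outside that rule, among them NDUFB5, NDUFA8, NDUFS4, NDUFA13, NDUFB6, NDUFC2, COX7C, the ATP5G genes and further list genes, were named after their values were seen. The alternatives tried were pseudocounts of 0.5 and 5, other filters, TMM and quantile scaling, no intensity trend, group weights, fits of only the groups compared, a replicate block, length and GC adjustment, count tests, and each library left out. 1 member is counted but its values are not reported here.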

Additional observations from a re-analysis of the deposited data

Results flagged for a closer look

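The comparisons of exposure times test directly whether the level at a later time differs from that at 6 h. The members given here differed by limma. In these comparisons too, exposure time and culture time cannot be told apart. From 6 to 9 h the log2 change was 0.29 for NDUFV3, 0.19 for SDHA and −0.17 for UQCRFS1. From 6 to 12 h it was 0.36 for NDUFV3, 0.24 for NDUFS6, 0.22 for SDHA, 0.19 for NDUFA4, 0.18 for NDUFA13 and 0.15 for UQCRC2. UQCRFS1 was the member that went down, with −0.20. Of 24 settings tried, the call from 6 to 9 h held in 24 for NDUFV3, 20 for SDHA and 12 for UQCRFS1. From 6 to 12 h it held in 24 for NDUFV3, 22 for NDUFS6, 21 each for SDHA, NDUFA4 and NDUFA13, 20 for UQCRFS1 and 19 for UQCRC2.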

How the results depend on the processing

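No change of a called member reversed under any of the alternatives run. GC adjustment, alone or with the replicate block, was added after the data had been seen. For members called, risen and fallen, values are given in that order, and only where they moved by more than 1.5 times. Against the reported 6 h counts of 5, 5 and 0, 2 were called and 2 rose with no intensity trend and with only the 2 groups compared, 3 and 3 with weights per group, and 1 and 1 with DESeq2 and in the authors' deposited table. With length adjustment 2 rose and 3 fell, with the replicate block or without it, and with GC adjustment 1 fell, likewise. At 9 h (8, 7 and 1), 14 and 13 were called and rose with TMM and with edgeR, 19, 19 and 0 with quantile normalization, 1, 1 and 0 with no intensity trend, 5 and 4 with only the 2 groups, with DESeq2 and with replicate block and length adjustment, 4 and 3 in the authors' deposited table, 13 and 12 with GC adjustment, 15 and 14 with replicate block and GC adjustment, and 2 fell with length adjustment. At 12 h (17, 16 and 1), 26, 26 and 0 were counted with quantile normalization, 5, 5 and 0 with no intensity trend, 11 called and 0 fallen with only the 2 groups, DESeq2 and the authors' deposited table, and 10 rose and 2 fell with length adjustment, with or without block. With GC adjustment, with or without block, 2 fell, and 0 fell with no filter, TMM, edgeR, weights per group and replicate block. From 6 to 9 h, no intensity trend left 1 of 3. From 9 to 12 h, 3 were called with only the 2 groups, 2 with weights per group and 1 with replicate block and GC adjustment, against 0. From 6 to 12 h, 5 and 15 were called with no intensity trend and only the 2 groups, against 8. The F test gave 9 with DESeq2, 4 with no intensity trend, 22 with quantile normalization and 23 with replicate block and GC adjustment, against 14.

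Medians by complex moved with scaling. With GC adjustment they were 0.050 for complex I, 0.056 for complex III and 0.079 for complex IV at 12 h and 0.055 for complex IV at 9 h. With TMM they were 0.098, 0.092 and 0.12 for complexes I, III and IV at 12 h and 0.068 for complex III at 9 h. With quantile normalization, complex I had 0.057 and 0.128 at 9 and 12 h, complex III 0.061, 0.108 and 0.119 at 6, 9 and 12 h, complex IV 0.114 and 0.149 at 9 and 12 h, and ATP synthase 0.104 at 12 h. With length adjustment, complex I had −0.017 and 0.036 at 9 and 12 h, complex III −0.045, −0.00314 and −0.00823 at 6, 9 and 12 h, complex IV 0.029 and 0.030 at 9 and 12 h, and ATP synthase 0.024 at 12 h. With no filter, complex III had 0.082 and 0.102 at 9 and 12 h and complex IV 0.093 at 12 h. The cause was not tested.

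Leaving out 1 library gave 0 to 26 called, 0 to 17 risen and 0 to 9 fallen at 6 h, 2 to 27, 2 to 21 and 0 to 6 at 9 h, and 7 to 32, 7 to 25 and 0 to 7 at 12 h. It gave 1 to 4 called from 6 to 9 h, 0 to 2 from 9 to 12 h, 2 to 14 from 6 to 12 h and 4 to 34 by the F test. Medians ran from −0.060 to 0.011 for complex I at 6 h, from 0.00862 to 0.046, 0.046 to 0.078 and 0.053 to 0.076 for complex III at 6, 9 and 12 h, from 0.057 to 0.10 and 0.076 to 0.098 for complex IV at 9 and 12 h, and from 0.030 to 0.057 for ATP synthase at 12 h. The log2 difference between replicates 1 and 2 was correlated between groups over the 14074 genes tested, which gave −0.035 to 0.028. These values show no shared difference by replicate number, and they cannot exclude that same-numbered samples were paired. The replicate block gave 6, 10 and 18 risen members at 6, 9 and 12 h.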
